A study of Mus musculus with 2 samples.

Results

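The 10 genes described here encode the CD3 chains, the coreceptors and the first kinases and adaptor of T cell receptor (TCR) signaling: Cd3d, Cd3e, Cd3g, Cd247, Cd4, Cd8a, Cd8b1, Lck, Zap70 and Lat. They were chosen by name, not by their values, out of 32285 genes counted. Thymocytes of C57BL/6 mice were gated on CD1d tetramer stain and sorted as stage 0 (TCRβ+, CD24+, NK1.1-) and stage 3 (TCRβ+, NK1.1+, CD24-, CD44+) invariant natural killer T (iNKT) cells. The donors were T-KO mice, Kidins220 fl/fl with LckCre, and Ctrl mice, Kidins220 +/fl or Kidins220 +/+ with LckCre, so that both genotypes carried a Cre driven by the proximal Lck promoter. For each genotype 4 thymi were pooled, and the sorts were done as 2 replicas in parallel. Whether both replicas came from the same thymi is not stated. No age is stated for these particular mice. The 8 populations were marked with hashtag antibodies and sequenced together as 1 droplet library read from the 5′ end of transcripts.

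Nearly all hashtag unique molecular identifiers (UMIs), 99.9%, lay on the rows 11 to 18 of the 20 hashtag rows, whereas the labels number the hashtags from 1 to 8 and give no key between both numberings. The labels therefore assign no row to a stage or genotype, no Ctrl and T-KO cells were compared, and no test was run. Levels below are those of single hashtag rows unless they are said to be summed over rows, and intervals are exact Poisson intervals (levels) or Clopper-Pearson intervals (shares) at 95% that cover counting error only. Of 16179 barcodes, 12147 had at least 1000 genes and at most 5% mitochondrial UMIs, and 10007 of these had at least 80% of at least 10 hashtag UMIs on 1 row. The odd-numbered rows 11, 13, 15 and 17 held 4249 cells and the even-numbered rows 12, 14, 16 and 18 held 5758.

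The TCR has no signaling domain of its own. It is assembled with CD3δ, CD3ε, CD3γ and the ζ chain, which is encoded by Cd247, and their cytoplasmic tails are phosphorylated by LCK when the receptor is engaged. ZAP-70 then docks on the phosphorylated tails and phosphorylates the adaptor LAT, on which downstream enzymes assemble. CD4 and CD8 bind major histocompatibility complex molecules and bring LCK to the receptor. Cortical thymocytes carry both coreceptors (double positive, DP), and mouse iNKT cells, which arise from DP thymocytes and recognise lipids on CD1d, keep CD4 or lose both.

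The 10 genes lie on 5 chromosomes in GRCm38 (mm10) with GENCODE M21, in which all 10 had the identifier used in the files. Cd3g (chr9:44969572-44980431, minus strand), Cd3d (chr9:44981786-44987339, plus strand) and Cd3e (chr9:44998740-45009627, minus strand) form a cluster of 40056 bases, in which Cd3g and Cd3d are transcribed away from each other across a gap of 1354 bases. Cd8b1 (chr6:71322788-71337494) and Cd8a (chr6:71373427-71379173) stand in the same direction with 35932 bases between them, and Cd4 (chr6:124864692-124888221, minus strand) is on the same chromosome. Cd247 (chr1:165788681-165877277, plus strand), Zap70 (chr1:36761798-36782818, plus strand), Lat (chr7:126363824-126369570, minus strand) and Lck (chr4:129548344-129573641, minus strand) stand apart. Of the 10, Cd3e and Cd247 overlap another annotated gene, Gm48719 on the opposite strand for Cd3e, and Pou2f1, Gm37469 (both opposite) and Gm16565 (same strand) for Cd247. Only Gm16565 shares the strand of the gene it overlaps, and its part in the counts of Cd247 was not tested.

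The 250 bases before an annotated start are shown for the genes whose levels carry the results below: the 3 clustered CD3 genes, which moved together, Zap70 (the first of its 3 annotated starts), which separated the gates and rows most among the kinases, Cd8a, which was lowest in the even rows, and Lck, whose proximal start gives the promoter that drives Cre. Sequences are from RefSeq (GRCm38.p6), written 5′ to 3′ on the strand of the gene. Capitals mark matches on either strand to the letters CANNTG (E-box), TGTGGT (RUNX) and GGAAGT (ETS).
Cd3d, chr9:44981536-44981785: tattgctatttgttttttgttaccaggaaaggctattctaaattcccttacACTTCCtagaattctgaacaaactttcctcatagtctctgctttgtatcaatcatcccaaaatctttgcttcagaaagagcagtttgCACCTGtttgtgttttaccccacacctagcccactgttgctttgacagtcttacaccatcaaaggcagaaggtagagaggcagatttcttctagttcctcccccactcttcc
Cd3g, chr9:44980432-44980681: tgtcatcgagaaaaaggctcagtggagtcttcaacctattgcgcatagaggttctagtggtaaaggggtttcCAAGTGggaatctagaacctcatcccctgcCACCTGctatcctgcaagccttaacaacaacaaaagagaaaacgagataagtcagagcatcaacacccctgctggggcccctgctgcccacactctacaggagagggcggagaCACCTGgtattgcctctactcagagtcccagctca
Cd3e, chr9:45009612-45009861: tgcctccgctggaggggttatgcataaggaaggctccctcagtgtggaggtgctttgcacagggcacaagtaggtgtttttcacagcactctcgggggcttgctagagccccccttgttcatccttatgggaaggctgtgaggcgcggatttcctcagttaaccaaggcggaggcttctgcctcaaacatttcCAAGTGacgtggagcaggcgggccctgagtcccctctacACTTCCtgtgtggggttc
Zap70, chr1:36761548-36761797: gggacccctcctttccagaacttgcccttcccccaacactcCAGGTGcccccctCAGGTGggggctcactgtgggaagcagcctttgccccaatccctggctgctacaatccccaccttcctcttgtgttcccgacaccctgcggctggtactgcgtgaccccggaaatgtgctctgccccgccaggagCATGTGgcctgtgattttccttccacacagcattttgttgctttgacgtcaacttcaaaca
Cd8a, chr6:71373177-71373426: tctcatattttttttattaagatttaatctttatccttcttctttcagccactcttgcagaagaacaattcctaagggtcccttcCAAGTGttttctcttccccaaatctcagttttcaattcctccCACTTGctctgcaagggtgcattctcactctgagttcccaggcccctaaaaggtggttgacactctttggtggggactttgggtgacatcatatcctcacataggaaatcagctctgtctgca
Lck proximal, chr4:129558373-129558622: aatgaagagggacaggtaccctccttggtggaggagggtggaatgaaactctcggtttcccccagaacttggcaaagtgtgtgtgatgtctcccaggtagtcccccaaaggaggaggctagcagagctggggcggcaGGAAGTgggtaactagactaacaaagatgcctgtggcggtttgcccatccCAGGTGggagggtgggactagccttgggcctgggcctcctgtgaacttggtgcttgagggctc
Lck distal, chr4:129573642-129573891: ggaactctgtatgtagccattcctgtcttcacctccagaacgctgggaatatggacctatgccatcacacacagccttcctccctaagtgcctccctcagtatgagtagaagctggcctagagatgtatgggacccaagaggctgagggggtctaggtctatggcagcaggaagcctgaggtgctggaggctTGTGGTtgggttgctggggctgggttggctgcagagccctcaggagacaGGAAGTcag

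The 2 Lck starts are 15269 bases apart, and the counts are summed over both. CANNTG matched once in the windows of Cd3d, Cd3e and proximal Lck, 2 times in that of Cd8a and 3 times in those of Cd3g and Zap70, and 66.2% of 32851 RefSeq promoter windows of this length hold at least 1 match. GGAAGT or its complement was found in the windows of Cd3d, Cd3e and both Lck starts (19.7% of all windows), and TGTGGT only in that of the distal Lck start among the windows printed (14% of all windows). These are letter matches, with no binding measured here. The RefSeq promoter table used here matched 8 of the 10 genes. Cd4 and Cd8b1 are named only.

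The genes of the sort separated the odd from the even rows. Klrb1c, which encodes NK1.1, was at 4.78 to 6.57 UMIs per 1000000 UMIs (CPM) in the odd rows and at 328 to 444 CPM in the even rows, while Cd24a was at 313 to 365 CPM in the odd rows and at 23.3 to 34.2 CPM in the even rows. Cd44 ranged from 40.7 to 90.4 CPM in the odd rows and from 143 to 163 CPM in the even rows. Median depth was 6500 to 8068 UMIs per cell in the odd rows and 3258 to 3804 in the even rows, and the rows summed to 2283162 to 14601545 UMIs. The paper found B cells, myeloid cells, DP and CD4-CD8- thymocytes in a first clustering and removed them. It proposes that thymocytes may have been present because of a poor CD1d tetramer stain in this sort. Here such cells were kept, so cells of the odd rows cannot be taken as iNKT cells. The odd rows held many cells of other kinds and were split by the first match of at least 2 Cd79a, 5 Cst3, 1 Rag1 or 2 Ikzf2 UMIs. Cd79a is a B cell receptor chain, Cst3 is high in dendritic and myeloid cells, RAG1 recombines receptor genes in DP thymocytes, and Ikzf2 encodes Helios, which rises after agonist selection. These gates held 810, 972, 418 and 1106 cells of the odd rows, and 943 cells matched none (the rest). The Cd79a, Cst3 and Rag1 gates were checked on marker lists without the gene that set them, and the Ikzf2 gate was not checked in this way. Without Cd79a, 6 B cell markers summed to 1905 to 2327 CPM in the Cd79a gate and to at most 39.0 CPM in the Rag1, Ikzf2 and rest gates. Without Cst3, 8 dendritic and myeloid markers, 3 of which (Cd74, H2-Aa and H2-Ab1) B cells also express, summed to 30254 to 45029 CPM in the Cst3 gate, 26314 to 27637 CPM in the Cd79a gate and at most 694 CPM in the other 3 gates. Without Rag1, 6 DP markers summed to 1437 to 1569.5 CPM in the Rag1 gate, 809 to 1173 CPM in the rest and at most 546 CPM in the other gates and the even rows. The gates are ranges of counts: 200 cells of the Rag1 gate had exactly 1 Rag1 UMI, 194 of the Ikzf2 gate had exactly 2 Ikzf2 UMIs, and 318 of the rest had 1. Genes of γδ T cells (a list of 5) summed to 516 to 838 CPM in the rest, 255 to 307 CPM in the Rag1 gate and 105 to 165 CPM in the even rows, and their part in the levels of the rest was not tested. Row 11 stood apart by the depth of its Rag1 gate and row 17 by CD3 transcripts in its Cd79a and Cst3 gates, so values are given by row where these rows matter.

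Kidins220, the targeted gene, ranged from 13.9 to 35.2 CPM over the 8 rows. Kidins220 was not used to assign a row to a genotype, since reads at the 5′ end may lie outside the deleted part, which was not tested.

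The transcripts of the CD3δ, ε and γ chains were higher in every even row than in every odd row. Cd3e was counted at 306, 486, 493 and 655 CPM in rows 11, 13, 15 and 17 and at 1268, 1389, 1313 and 1402 CPM in rows 12, 14, 16 and 18. Cd3d gave 265, 401, 415 and 571 CPM in the odd rows and 983, 1014, 1109 and 1199.7 CPM in the even rows. The levels of Cd3g were 265, 437, 461 and 596 CPM against 1201, 1299, 1225 and 1252 CPM. All 3 genes had their lowest level in row 11 and their highest odd level in row 17, with no overlap between odd and even rows. The median even row was 2.60-fold (Cd3d), 2.76-fold (Cd3e) and 2.76-fold (Cd3g) above the median odd row, and every row sum rested on at least 2533 UMIs.

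Part of this distance lay in cells of other kinds. Cells in the Cd79a gate and the Cst3 gate made up 9.95% to 23.7% and 16.5% to 33.2% of the odd rows, and in sums over all cells, fewer T cells and less RNA per T cell cannot be told apart. When cells of both gates were left out of all 8 rows, Cd3e was at 735 to 833 CPM in the odd rows and 1278 to 1417 CPM in the even rows, a ratio of the medians of 1.82-fold. The corresponding ratios were 1.67-fold for Cd3d and 1.86-fold for Cd3g, and the ranges stayed apart.

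**Figure D1:**
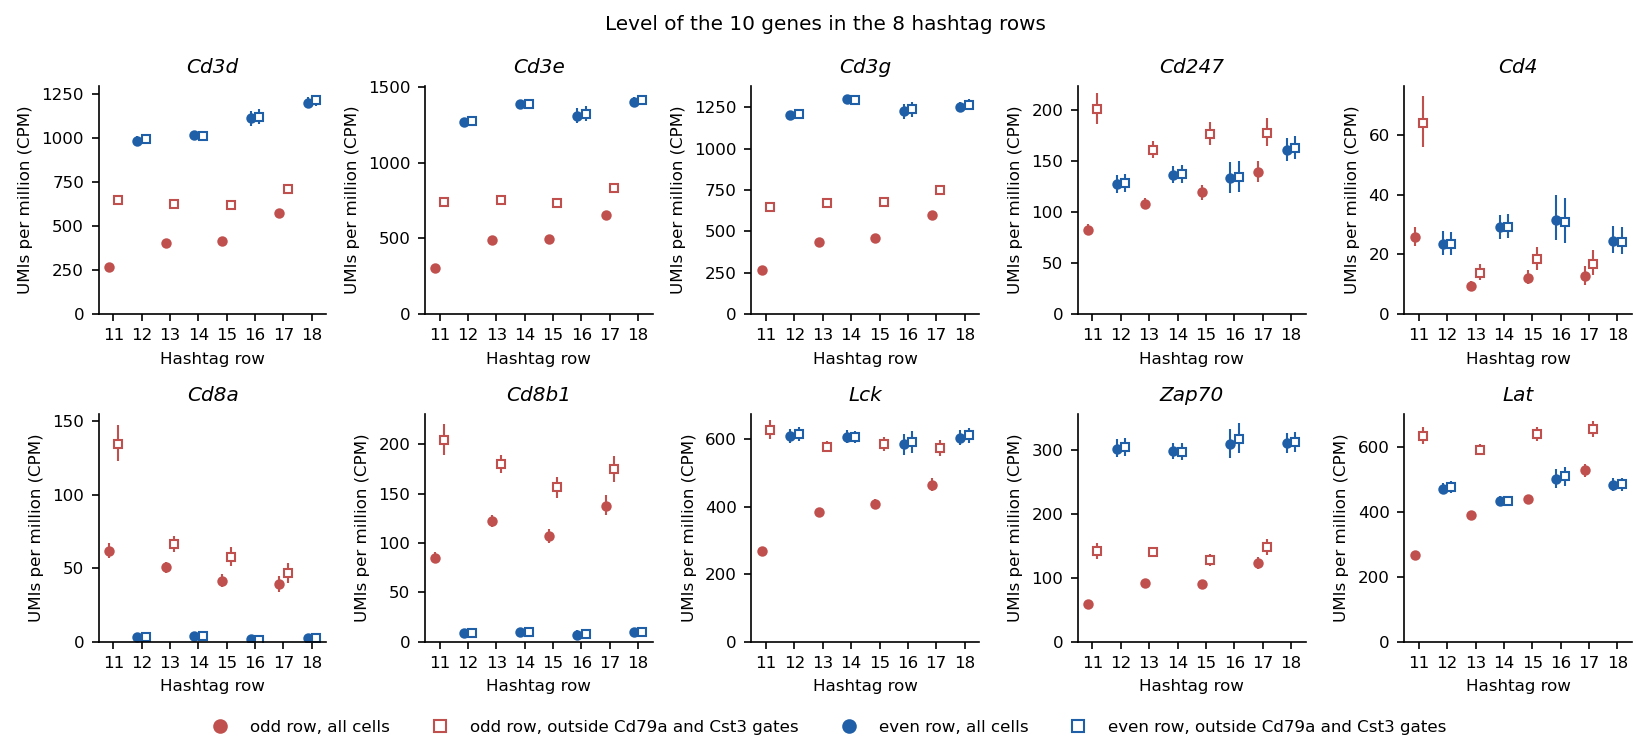
Level of each gene (vertical axis, CPM) in hashtag rows 11 to 18 (horizontal axis), with exact Poisson intervals at 95%, for all cells (filled circles) and for cells outside the Cd79a and Cst3 gates (open squares), with odd rows in red and even rows in blue. Without those gates the odd rows moved up while the even rows hardly moved; Cd3d, Cd3e, Cd3g and Zap70 stayed lower in the odd rows, and Lat and Cd247 passed to higher medians there.

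Cd247, the ζ chain gene, did not separate the odd from the even rows as the other chains did. It was counted at 82.6, 108, 119 and 139 CPM in the odd rows and at 127, 137, 133 and 161 CPM in the even rows. These values overlapped, since row 17 stood above rows 12, 14 and 16. Outside the Cd79a and Cst3 gates the order of the medians turned: Cd247 was at 161 to 201 CPM in the odd rows and 128 to 163 CPM in the even rows, so that the odd median was 1.31-fold higher, with an overlap of row 18 and row 13. As a share of the UMIs of all 4 chains, Cd247 made up 7.11% to 8.99% in the odd rows and 3.52% to 4.02% in the even rows. The lowest odd share was that of row 17 (95% interval 6.63% to 7.61%) and the highest even share that of row 18 (3.75% to 4.30%), so the 2 groups did not overlap. This share is a ratio of UMI counts and does not set the amounts of the proteins side by side.

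The same share differed among the gates of the odd rows. It was 7.66% to 9.43% in the Rag1 gate, 6.10% to 7.13% in the Ikzf2 gate and 8.29% to 10.3% in the rest. In every gate it was above the 4 even rows. Among the other 3 chains the composition hardly moved: Cd3e made up 36.0% to 36.7% of the Cd3d, Cd3e and Cd3g UMIs in the odd rows and 36.0% to 37.5% in the even rows.

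Within the gates, Cd3d, Cd3e and Cd3g were higher in the Ikzf2 gate than in the Rag1 gate in all 4 odd rows. Cd3d was at 505 to 552 CPM in the Rag1 gate, 750.5 to 819 CPM in the Ikzf2 gate and 506 to 688 CPM in the rest. The ratio of the Ikzf2 to the Rag1 gate had a median over rows of 1.49-fold for Cd3d, 1.27-fold for Cd3e and 1.21-fold for Cd3g, and of 0.975-fold for Cd247, which was higher in 2 rows and lower in 2. Since the gates were set by Rag1 and Ikzf2, these are descriptions of cells chosen by other genes. No share over all genes was set beside the comparison of these gates with each other.

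CD3 transcripts were not absent from the gates of other cell types. In the Cd79a gate Cd3e was at 46.5 to 145 CPM and in the Cst3 gate at 85.6 to 259 CPM, with row 17 highest in both. In row 17, 13.8% (6.15% to 25.4%) of 58 Cd79a-gate cells and 24.0% (15.8% to 33.7%) of 96 Cst3-gate cells had at least 5 UMIs of the 3 chains together, against 2.50% to 4.47% and 8.21% to 15.1% in rows 11, 13 and 15. Leaving such cells out, the summed level of the 3 chains was 60.5 to 96.4 CPM in the Cd79a gate and 52.0 to 62.2 CPM in the Cst3 gate. No doublet caller was run. Doublets between rows were removed only where their hashtags were mixed.

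The CD8 genes showed the opposite pattern to the CD3 genes. Cd8a, the α chain of the coreceptor, was counted at 61.9, 50.5, 41.2 and 38.9 CPM in rows 11, 13, 15 and 17 and at 3.14, 3.56, 1.75 and 2.47 CPM in rows 12, 14, 16 and 18. Cd8b1, the β chain, gave 85.2, 122, 107 and 138 CPM in the odd rows and 8.75, 9.99, 7.01 and 9.69 CPM in the even rows. Neither gene overlapped between odd and even rows, and the odd medians were 16.3-fold (Cd8a) and 12.4-fold (Cd8b1) higher. The even values rested on 4 to 26 Cd8a UMIs and 16 to 73 Cd8b1 UMIs per row. In the Cd79a gate, whose B cells should lack both genes, Cd8a was at 3.43 to 7.44 CPM and Cd8b1 at 9.96 to 19.6 CPM, and the even rows lay below these ranges except row 14, which lay just inside their lower ends. Cd8a was detected in 0.520% to 1.11% of even-row cells and in 1.84% to 4.76% of Cd79a-gate cells, at median depths of 3258 to 3804 and 5374 to 6453.5 UMIs. As counted, the even-row shares were thus no higher than those of the gate used as background, but its cells were deeper. With each cell thinned at random to 1500 UMIs, the shares were 0.180% to 0.431% in the even rows and 0% to 0.528% in the gate. These ranges overlapped, and the even median was the higher one (0.410% against 0.201%). The shares therefore do not settle whether Cd8a in the even rows lay above background. Within the even rows, Cd8b1 was at 47.8 CPM (20.6 to 94.1) in the 50 cells with Cd8a and no Cd4 UMI, summed over rows, and at 8.71 CPM in cells with neither, but its 8 UMIs in these cells all came from row 14.

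Among the gates, CD8 transcripts were highest in the Rag1 gate, except that Cd8a in row 15 was higher in the rest (81.7 CPM). Their Cd8a level was 278, 121, 75.1 and 87.2 CPM in rows 11, 13, 15 and 17 and their Cd8b1 level 515, 373, 253 and 302 CPM, with row 11 highest for both. In the Ikzf2 gate Cd8a was at 24.4 to 55.1 CPM and Cd8b1 at 54.2 to 117 CPM, below the Rag1 gate in all 4 rows, by medians of 3.16-fold and 4.61-fold. The rest lay between for Cd8b1, at 141 to 188 CPM. In the Cst3 gate Cd8a was at 19.9 to 51.6 CPM. A set of dendritic cells is known to carry the CD8α chain without the β chain. Cd8b1 was at 26.2 to 69.4 CPM in the Cst3 gate, and the source of either transcript in this gate was not tested.

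Cd4 was low in all rows. It was counted at 25.8, 9.25, 12.2 and 12.6 CPM in rows 11, 13, 15 and 17 and at 23.5, 29.0, 31.5 and 24.5 CPM in rows 12, 14, 16 and 18. Rows 13, 15 and 17 lay below all even rows, and row 11 lay among them, with an interval (22.7 to 29.2 CPM) that met those of all 4. At least 1 Cd4 UMI was seen in 7.25% to 10.2% of the cells of the even rows, at a median depth of 3258 to 3804 UMIs, against 1.67% to 2.38% in the deeper Cd79a gate. Most cells of the even rows had no Cd4 UMI. At this level and depth, a cell without a Cd4 UMI cannot be taken to lack Cd4, so these shares are of detection only. When each cell's CPM was averaged in place of summing UMIs, the median odd row was above the median even row, so the direction for Cd4 was not settled.

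Without the Cd79a and Cst3 gates, Cd4 was at 64.1, 13.8, 18.3 and 16.8 CPM in rows 11, 13, 15 and 17 and at 23.3 to 30.8 CPM in the even rows, so that row 11 lay above and the other odd rows below all even rows. In the gates, Cd4 was at 61.4 (43.9 to 83.7), 14.7, 11.9 and 13.3 CPM in the Rag1 gate of rows 11, 13, 15 and 17, so row 11 alone stood apart. The Ikzf2 gate was at 6.82 to 13.6 CPM and the rest at 103 (87.8 to 120.3), 17.2, 41.2 and 36.1 CPM, again highest in row 11. Row 11 also differed in depth: its Rag1 gate had a median of 3684.5 UMIs per cell against 14409 to 15274 in rows 13, 15 and 17, and its rest 2859 against 4847.5 to 7120. These depths moved with the higher coreceptor levels in row 11, and their part in them was not tested.

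The kinases and the adaptor separated from each other. Zap70, the kinase recruited to phosphorylated CD3 tails, was at 59.1, 91.4, 89.5 and 123 CPM in the odd rows and at 302, 297, 309.7 and 310.1 CPM in the even rows. The even rows had overlapping intervals and all lay above row 17, the highest odd row, and the medians differed 3.38-fold. Outside the Cd79a and Cst3 gates Zap70 was at 128 to 148 CPM in the odd rows and 297 to 318 CPM in the even rows, 2.19-fold.

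Among the T cell gates, Zap70 was lowest in the Rag1 gate and highest in the Ikzf2 gate. It was at 87.5, 83.2, 80.1 and 66.3 CPM in the Rag1 gate of rows 11, 13, 15 and 17, at 123, 103, 110 and 122 CPM in the rest, and at 194, 203, 182 and 211 CPM in the Ikzf2 gate. The 3 ranges did not overlap, and all lay below the even rows. The Ikzf2 gate was above the Rag1 gate by a median of 2.36-fold over rows (2.22-fold to 3.17-fold). Within rows, the intervals of the Rag1 and Ikzf2 gates did not meet.

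Lck, the kinase that starts the cascade, was at 269.5, 386, 409 and 466 CPM in the odd rows and 609, 608, 585 and 606 CPM in the even rows. The groups did not overlap over all cells, but they did outside the Cd79a and Cst3 gates, at 573 to 629 CPM in the odd rows and 592 to 616 CPM in the even rows. Among the gates it was at 626 to 719 CPM in the Rag1 gate, 500.1 to 523 CPM in the Ikzf2 gate and 600.1 to 682 CPM in the rest, and the Rag1 gate was above the Ikzf2 gate in all 4 rows by a median of 1.27-fold. Whether transcripts of the LckCre transgene add to these counts was not tested.

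Lat, the adaptor, was at 266, 391, 439 and 528 CPM in the odd rows and 471, 432, 501 and 483 CPM in the even rows, with row 17 above all even rows. Outside the Cd79a and Cst3 gates it was higher in every odd row, at 591 to 655 CPM, than in every even row, at 433 to 509 CPM. The Rag1 gate had the highest Lat, at 817, 745, 729 and 776 CPM in rows 11, 13, 15 and 17. The Ikzf2 gate was lower in all 4 rows, at 432 to 529 CPM, and overlapped with the even rows, while the rest was at 675 to 747 CPM.

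**Figure D2:**
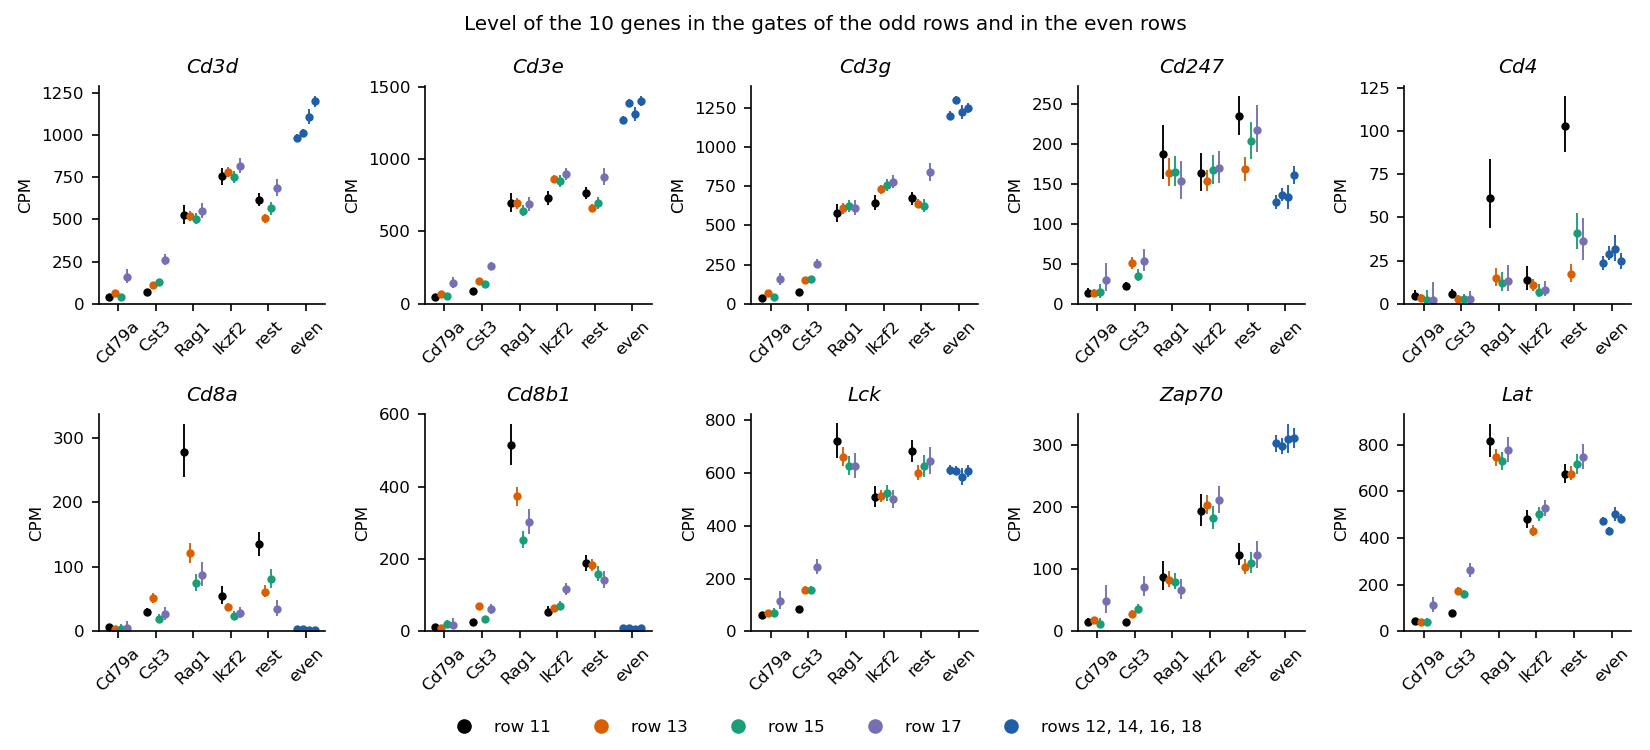
Level of each gene (vertical axis, CPM) in the 5 gates of the odd rows and in the even rows (horizontal axis), 1 point per hashtag row with its exact Poisson interval at 95%. Zap70 was ordered from the Rag1 gate (66.3 to 87.5 CPM) through the rest and the Ikzf2 gate to the even rows, Cd8b1 was highest in the Rag1 gate in every odd row, and row 11 stood above the other rows for Cd4 and Cd8a in the Rag1 gate and the rest.

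The separation of odd and even rows was set beside that of all genes, since many genes separated them. All 10 genes had a mean of at least 10 CPM over the rows, as did 8688 genes. Of the 10, 5 (Cd3d, Cd3e, Cd3g, Lck and Zap70) were higher in every even row, against 26.1% of the 8688 genes, and 2 (Cd8a and Cd8b1) were higher in every odd row, against 34.6%. Outside the Cd79a and Cst3 gates, 4 (Cd3d, Cd3e, Cd3g and Zap70) were higher in every even row, against 25.8% of 8545 genes, and 3 (Cd8a, Cd8b1 and Lat) in every odd row, against 44.4%. The median log2 ratio of even to odd rows, with a pseudocount of 1 CPM, was 0.83 over the 10 genes and -0.10 over all genes tested, and 0.32 and -0.18 outside the gates.

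Each T cell gate was also set against the even rows. In the Rag1 gate 4 of the 10 genes (Cd3d, Cd3e, Cd3g and Zap70) were below every even row, against 30.3% of 8386 genes, and 4 (Cd8a, Cd8b1, Lck and Lat) were above, against 39.1%. For the Ikzf2 gate the numbers were 6 below (Cd4 and Lck added to the former 4; 21.2% of 8614 genes) and 2 above (Cd8a and Cd8b1; 43.5%). The rest had 4 below (Cd3d, Cd3e, Cd3g and Zap70; 23.2% of 8527 genes) and 4 above (Cd247, Cd8a, Cd8b1 and Lat; 38.7%). These comparisons share the even rows. Cd3d, Cd3e, Cd3g and Zap70 were the genes below the even rows in all 3 gates.

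Detection of both coreceptors in the same cell was compared over rows. As counted, at least 1 UMI of Cd4 and of Cd8a was present in 5.10% (3.92% to 6.52%), 2.44%, 2.36% and 2.57% of the cells of rows 11, 13, 15 and 17, and in 0.285%, 0.0925%, 0% and 0.0789% of those of rows 12, 14, 16 and 18. The odd rows were deeper, so each cell was thinned at random to 1500 UMIs, which left out 223 of 10007 cells, 4 to 17 in each odd row and 22 to 72 in each even row. After thinning the shares were 2.07% (1.33% to 3.07%), 0.502%, 0.454% and 0.345% in the odd rows, and 1 cell of row 18, or 0.0820%, and no cell of rows 12, 14 and 16. A count of 0, taken as a limit of 3 cells of the total, allows up to 0.176%, 0.144% and 0.541% of cells with both UMIs in rows 12, 14 and 16, and the upper ends of the Clopper-Pearson intervals were 0.216%, 0.176% and 0.662%. These bound the cells with UMIs at this depth, not the cells expressing both genes. The interval of row 11 met that of row 17 as counted and none of the other odd rows' after thinning, and rows 13, 15 and 17 did not differ beyond their intervals.

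Cells of the Rag1 gate had the highest share of such cells in every odd row. The gate is set by Rag1 alone and was not shown to hold only DP thymocytes. At least 1 Cd4 UMI was seen in 33.3% of its cells in row 11 and in 13.1% to 14.8% in rows 13, 15 and 17. Both transcripts were counted in 29.2% (19.05% to 41.1%) of 72 cells of row 11, 12.1% of 149 cells of row 13, 7.38% of 122 cells of row 15 and 12% of 75 cells of row 17. Thinned to 1500 UMIs, the shares were 17.6% (9.47% to 28.8%) in row 11 and 3.36%, 1.65% and 2.70% in rows 13, 15 and 17. In the Cd79a gate 0% to 0.833% of the cells had both as counted, and none did after thinning. In the Ikzf2 gate the share was 0.410% to 1.86% as counted and 0% to 0.633% when thinned. As counted, the product of the separate shares of Cd4 and Cd8a cells in the Rag1 gate was 22.7% in row 11 and 6.13% to 8.03% in the others, so the observed share was 1.20 to 1.82 times the product in the 4 rows. After thinning it was 1.94 to 4.32 times the product there, and in the Cst3 gate 1.68 to 3.47 times as counted, so a share above the product was not particular to the Rag1 gate.

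**Figure D3:**
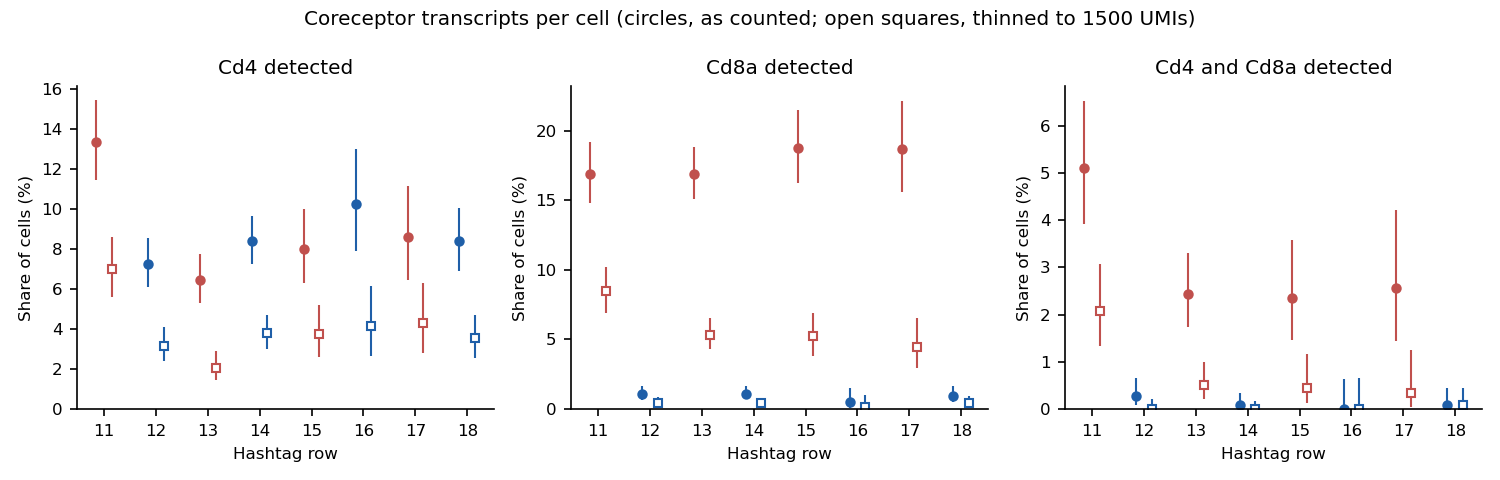
Share of cells (vertical axis, %) with at least 1 UMI of Cd4, of Cd8a and of both in each hashtag row (horizontal axis), as counted (filled circles) and after thinning each cell to 1500 UMIs (open squares), with Clopper-Pearson intervals at 95%. Cd8a was detected in 16.9% to 18.8% of odd-row cells and 0.520% to 1.11% of even-row cells as counted, and row 11 had the highest share with both.

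The coreceptor transcripts detected in a cell went along with its other transcripts. Outside the Cd79a and Cst3 gates, the odd rows held 217 cells with Cd4 only, 463 with Cd8a only, 116 with both and 1671 with neither. Their median depths were 2946, 12563, 3113 and 5634 UMIs, so that the Cd8a-only cells were the deepest, and the part of depth in the differences below was not tested. The list of CD4 lineage genes marked the Cd4-only cells: summed over the 4 rows, Zbtb7b, which encodes the factor ThPOK, was at 35.0 CPM in them, at 0.676 CPM in Cd8a-only cells and at 1.29 CPM in cells with both. Cd40lg, the ligand of CD40, was at 63.1, 1.86 and 10.3 CPM in the same order. The DP gene Rag1 went with both coreceptors: it was at 243 CPM in cells with both, 63.7 CPM in Cd8a-only cells and 27.2 CPM in Cd4-only cells. All 4 genes of the CD8 lineage list were lower in Cd8a-only than in Cd4-only cells, among them Runx3 (18.4 and 37.9 CPM) and Nkg7 (32.3 and 176 CPM). Trdc, the constant gene of the TCR δ chain, was at 201 CPM in Cd8a-only cells and 71.8 CPM in Cd4-only cells.

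The receptor chains and Zap70 were higher in Cd4-only than in Cd8a-only cells of all 4 odd rows. Zap70 was at 220, 184, 182 and 227 CPM in the Cd4-only cells of rows 11, 13, 15 and 17 and at 132, 140.4, 91.4 and 110 CPM in their Cd8a-only cells, with a median ratio of 1.82-fold. Cd247 was at 529, 237, 266 and 338 CPM against 195, 158, 190 and 171 CPM, highest in row 11, with a median ratio of 1.72-fold. Cd3e was at 1320, 974, 965 and 995 CPM against 777, 760, 682 and 773 CPM, and the groups did not overlap for any of the 3 genes. The share of all genes that separate these states was not set beside this, so whether the separation is particular to these genes is not known. With the cells of the Cd79a and Cst3 gates included, the median ratio of Zap70 was 1.93-fold and that of Cd247 1.69-fold.

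Summed over the 4 rows, cells with both coreceptors had the highest Lck, Lat and Cd8b1. Lat was at 982 CPM in them (interval 913 to 1054), against 721 CPM in Cd8a-only cells, 734 CPM in Cd4-only cells and 548 CPM in cells with neither. Lck was at 849, 637, 731 and 539 CPM in the same order, and Cd8b1 at 906, 299, 131 and 84.4 CPM. The 116 cells came from all 4 rows, but 52 of them from row 11, where Lck was at 1274 CPM and Lat at 1249 CPM, above the 704 to 822 CPM and 812 to 1057 CPM of rows 13, 15 and 17. Rows 15 and 17 gave 17 and 14 such cells. By row, Lck was highest in cells with both in all 4 rows, while Lat was so in rows 11, 13 and 15 and was higher in Cd4-only cells of row 17 (915 against 812 CPM).

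**Figure D4:**
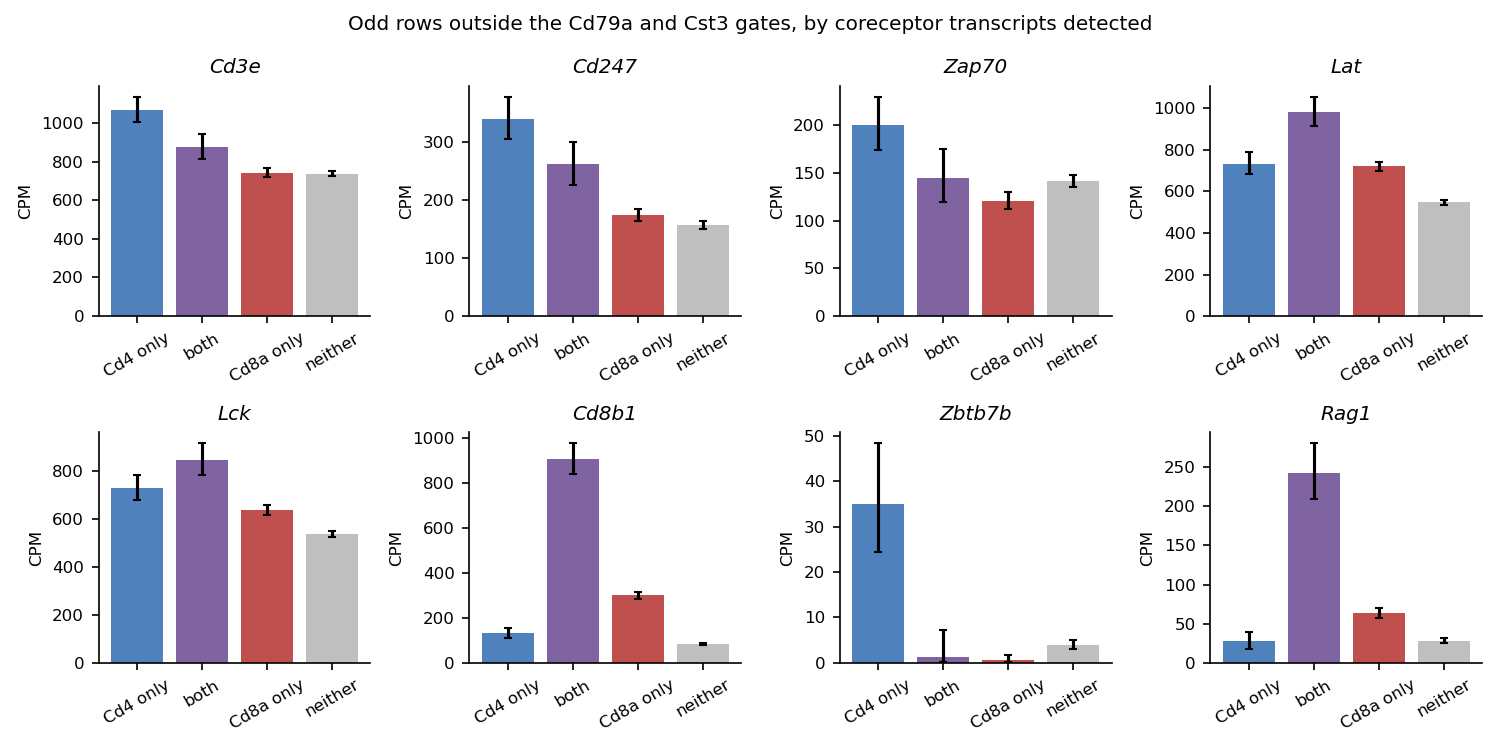
Level (vertical axis, CPM) of 8 genes in cells of the odd rows outside the Cd79a and Cst3 gates, grouped by the coreceptor transcripts detected (horizontal axis), with bars for the UMIs summed over the 4 rows and exact Poisson intervals at 95%. Zbtb7b was highest in Cd4-only cells, at 35.0 CPM, and Rag1 was highest in cells with both, at 243 CPM.

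In the even rows, 465 cells had Cd4 only, 50 had Cd8a only, 8 had both and 5235 had neither, at median depths of 3569, 3363.5, 4110.5 and 3376 UMIs. The cells with neither are set by undetected UMIs and may include cells that express Cd4. The part of this in the small differences below was not tested. Summed over the 4 rows, Cd4-only cells lay close to cells with neither in the other members: Cd3e was at 1429 against 1338 CPM (higher in 4 of 4 rows), Lat at 491 against 459.9 CPM (3 of 4), Zap70 at 316 against 301 CPM (3 of 4) and Lck at 581 against 608 CPM (0 of 4). Zbtb7b was at 54.6 CPM and 51.9 CPM, with overlapping intervals, and was higher in 2 of 4 rows. Izumo1r, which encodes folate receptor 4, was at 284 CPM in Cd4-only cells and 153 CPM in cells with neither, and Zbtb16, the gene of the iNKT lineage factor PLZF, was at 100.4 and 68.7 CPM. Both were higher in Cd4-only cells of all 4 even rows.

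The same association of Cd4 and Izumo1r, in the same cells, was described within rows with cells grouped by other genes. Among even-row cells, those with Izumo1r and no Ccl5 UMI were set against those with Ccl5, a chemokine of effector cells, and no Izumo1r. Cd4 was at 40.0, 39.7, 60.7 and 31.2 CPM in the Izumo1r cells of rows 12, 14, 16 and 18 and at 14.9, 12.2, 5.41 and 14.7 CPM in the Ccl5 cells, without overlap. The value of 5.41 CPM rested on 3 UMIs in 142 cells, with an interval of 1.12 to 15.8 CPM. The Izumo1r cells were higher in 4 of 4 rows, by a median of 2.96-fold, and 11.6% to 21.6% of them had a Cd4 UMI against 2.11% to 5.26% of the Ccl5 cells. How many of all genes separate these groups of cells was not set beside this. Median depths were 3351.5 to 3968 and 3365 to 3700 UMIs.

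Zap70 followed Cd4 in this comparison. It was at 342, 341, 372 and 362 CPM in the Izumo1r cells and at 262, 275, 274 and 266 CPM in the Ccl5 cells of rows 12, 14, 16 and 18, again without overlap and with a median ratio of 1.33-fold. Here too the share over all genes is missing, so the values only describe these genes. Cd3e, Cd3g and Cd3d were higher in the Izumo1r cells in 4 of 4 rows, by medians of 1.19-fold, 1.12-fold and 1.18-fold, and the ranges of Cd3d overlapped. Lat was higher in 4 of 4 rows by a median of 1.07-fold with overlapping ranges, Cd247 in 3 of 4, and Lck in 2 of 4, at 551 to 644 CPM against 597 to 609.6 CPM. Among genes outside the 10, Zbtb16 was at 92.1 to 128 CPM in the Izumo1r cells and 36.1 to 54.4 CPM in the Ccl5 cells.

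**Figure D5:**
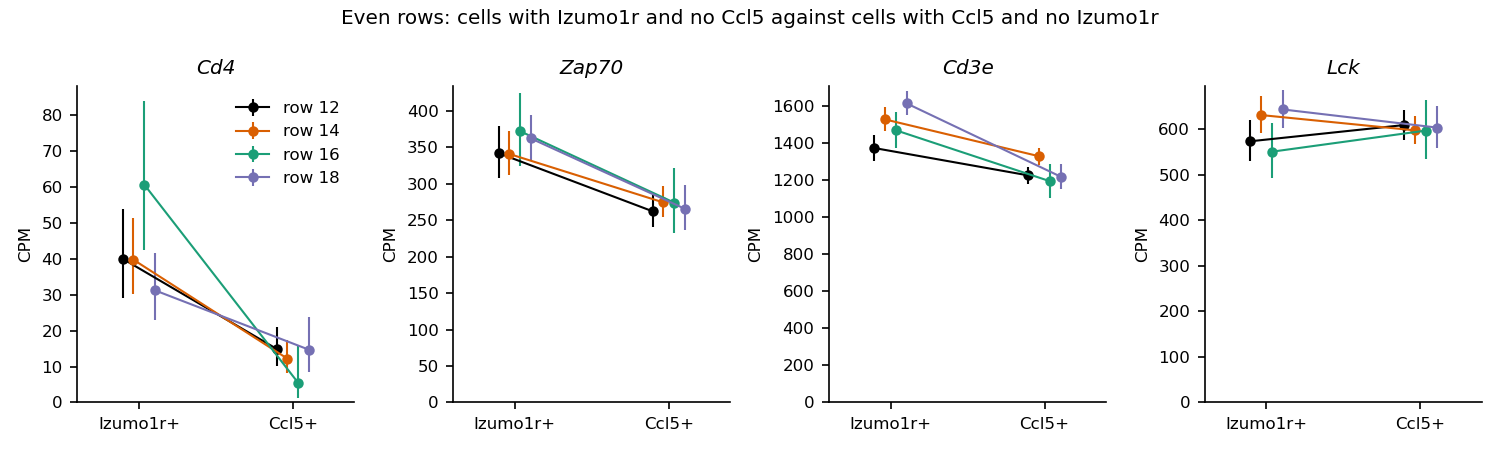
Level (vertical axis, CPM) of Cd4, Zap70, Cd3e and Lck in even-row cells with Izumo1r and no Ccl5 and in cells with Ccl5 and no Izumo1r (horizontal axis), with lines joining the 2 groups of a hashtag row and exact Poisson intervals at 95%. Cd4, Zap70 and Cd3e were higher in the Izumo1r cells of all 4 rows, and Lck crossed.

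The wider TCR-proximal pathway went mostly with the CD3 chains. A list of 41 genes held the TCR constant genes, kinases, adaptors, phosphatases and ligases next to the receptor, and all 41 passed the limit of 10 CPM. Of these, 30 were higher in every even row (26.1% of all genes tested), 3 in every odd row (34.6%) and 8 overlapped, with a median log2 ratio of 0.84, beside -0.10 over all genes. Outside the Cd79a and Cst3 gates the counts were 23 (25.8% of all genes tested), 7 (44.4%) and 11 and the median log2 ratio 0.50, beside -0.18. Txk, a Tec-family kinase, was at 16.4 to 37.9 CPM in the odd rows and 93.2 to 126 CPM in the even rows outside those gates. The inhibitory adaptor gene Dok2 was at 65.6 to 117 against 292 to 336 CPM, Ptpn6, which encodes the phosphatase SHP-1, at 159 to 212 against 553 to 623 CPM, and Prkcq, which encodes PKCθ, at 62.2 to 117 against 193 to 213 CPM. The 7 genes higher in every odd row were Trbc1, Trbc2, Rasgrp1, Themis, Rhoh, Cbl and Dgkz. Themis, which acts during positive selection, was at 127 to 148 CPM in the odd rows and 7.69 to 12.98 CPM in the even rows. The TCR constant genes split: Trac was at 53.1 to 80.5 CPM in the odd rows and 185 to 217 CPM in the even rows, while Trbc1 and Trbc2 ran the other way.

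Likeness of pattern was described over 24 units, the 20 combinations of odd row and gate and the 4 even rows, as the Pearson correlation of log2(CPM + 10) over 6778 genes with a mean of at least 20 CPM. The units share 1 library and differ in depth and cell type, so no p was computed. They include the Cd79a and Cst3 gates, in which Cd3d, Cd3e, Cd3g, Cd247, Lck and Lat were lower than in all other units. No correlation is given without these gates, so a high value may only restate that difference. Among the 3 nearest to the summed Cd3d, Cd3e and Cd3g were Skap1 (r = 0.99) and Ptpn7 (0.97). Satb1 (0.84), Ldb1 (0.81) and Rasgrp2 (0.80) were nearest to Cd4, and Rbm3 (0.94), Msh6 (0.92) and Hist1h1d (0.92) to Cd8a. Among the members, Cd8a and Cd8b1 (0.94) went together, as did Lck with Cd247 (0.99) and Lat (0.98), while Zap70 had r = -0.02 with Cd8a. Over these units Cd247 also went with Cd3d (0.93), Cd3e (0.94) and Cd3g (0.93).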

How the data were processed

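The library of transcripts and the library of hashtags were read from the same cell barcodes. The authors aligned and counted reads with Cell Ranger 6.0.0 and its mm10 reference (release not stated), and deposited UMI counts per gene or hashtag and barcode, without normalization. The 10 genes and all lists were chosen with earlier results of these data known, and the text names these genes, the fixed pathway and marker lists, the genes of the sort and gates, and the 3 genes most like Cd4, Cd8a and the CD3 chains, except for a few items that are not reported here.

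Cells were filtered, assigned to hashtag rows and split as the report states, in Python 3.11.15 with numpy 2.4.6, scipy 1.17.1 and pandas 2.3.3. UMIs were summed per row and group of cells and divided by their total (CPM). Odd and even rows are named by row number, and no label gives their stage. A gene was counted as separated when its 4 odd and 4 even values did not overlap, among genes with a mean of at least 10 CPM over the rows. Shares over all genes are given for odd against even rows and for gates against even rows, not for comparisons within rows. Comparisons of 2 groups within rows used rows with at least 20 cells in both, except that Lck and Lat in cells with both coreceptors were given for all odd rows. Free RNA was not removed. The steps across genes were tested on simulated row sums with 200 changed genes. Alternatives changed the cell filter, the hashtag limit, the denominator, the gates, detection and thinning. The view without Cd79a-gate and Cst3-gate cells and that without row 11 were added after the data had been seen.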

Additional observations from a re-analysis of the deposited data

Results flagged for a closer look

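Among 55 sets of 4 rows, 5 held a row far from the other 3, where chance gives about 1 in 20 sets. Row 11 gave 3 of them. Its Rag1 gate had 61.4 CPM of Cd4, and the other odd rows had 11.9 to 14.7 CPM. The share of its cells with both Cd4 and Cd8a after thinning was 2.07%, against 0.345% to 0.502% in the other odd rows, and in its Rag1 gate 17.6%, against 1.65% to 3.36%. Beside these, the Rag1-gate cells of row 11 had a median depth of 3684.5 UMIs, against 14409 to 15274, and the part of this in the Cd4 values was not tested. In the even rows, Lck was at 585 CPM in row 16 and at 606 to 609 CPM in the others, a gap within the counting interval of row 16 (554 to 617 CPM). The share with both coreceptors in row 18 after thinning, 0.0820%, was 1 cell, against 0 in rows 12, 14 and 16.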

How the results depend on the processing

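No paired analysis was possible because no hashtag row could be given a genotype or replicate number. The number of separated members, 7, was 6 to 8 under all alternatives, and 7 to 8 when each row was left out in turn, with Cd4 added without row 11 and Cd247 without row 17. Of the pathway list 33 genes were separated, 28 to 33 under the other settings and 33 to 36 without each row. The log2 ratio of even to odd rows of the summed Cd3d, Cd3e and Cd3g, 1.45, was 0.86 outside the Cd79a and Cst3 gates, and 1.42 to 1.47 without each row. Thinned co-detection in the median odd row, 0.478%, was 2.50% without thinning. The log2 ratio of Zap70 in the Ikzf2 over the Rag1 gate, 1.24, was 1.60 with at most 4000 genes per cell, 1.56 with 95% of at least 50 hashtag UMIs, and 1.54 with gates at 3, 8, 2 and 3 UMIs. For Zap70 in Cd4-only over Cd8a-only odd-row cells of all gates it was 0.95, and 1.399 with states at 2 UMIs. Without row 11 these 3 values were 0.454%, 1.29 and 0.89. Cd4 turned direction between odd and even rows, from a log2 ratio of 1.11 to -0.27, when the CPM of single cells was averaged. The Cd4 log2 ratio of Izumo1r over Ccl5 cells, 1.57, stayed between 1.54 and 1.80. Cd247 and Lat turned to higher odd medians outside the Cd79a and Cst3 gates (log2 -0.39 and -0.41, from 0.25 and 0.20). The cause of these shifts was not tested. Of 286 recomputed values, 249 moved by less than the spread between rows, or by less than 1.5 times for counts. Depth limits Cd8a in the even rows, which rested on at most 26 UMIs per row.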
